A study of Mus musculus with 16 samples.

Results

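The loss of TREM2 was examined here as 1 comparison over both Grn states: 8 mouse brains lacking Trem2 were set against 8 brains with Trem2, with Grn state as a factor in the model, so that each difference is the mean of a Trem2 knockout against WT difference and a Grn/Trem2 double knockout against Grn knockout difference. All 16 of the 16 animals of the series enter the comparison, and 708 of the 770 genes of the panel were tested. The 8 animals lacking Trem2 are 4 Trem2 knockouts and 4 Grn/Trem2 double knockouts, and the 8 animals with Trem2 are 4 Grn knockouts and 4 WT animals. All are females of 6 months, and RNA was taken from the whole brain, so every cell type of the brain contributes to each value. In such bulk RNA, fewer cells of a type and less RNA per cell cannot be told apart. The alleles were not specified further in the labels, and nothing beyond an animal number of its own describes the origin of each mouse, so the spread between animals may include litter or cage.

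TREM2 is a receptor of microglia, the resident macrophages of the brain. It binds lipids, lipoproteins such as those carrying apolipoprotein E, and other ligands, and signals through the adaptor DAP12 (Tyrobp) and the kinase SYK. It is known for its part in the change of microglia from a homeostatic to a disease-associated state, in phagocytosis and in lipid handling, and loss-of-function mutations in human TREM2 or TYROBP cause a dementia with bone cysts. Grn encodes progranulin, a secreted and lysosomal protein, and mice without it develop activated microglia with age. Tyrobp, Clec7a and Cst7, which are commonly read with TREM2, were not analysed here.

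Values are the authors' deposited normalized counts of the nCounter platform, in which coloured barcodes attached to gene-specific probes are counted singly. They are scaled to 10 reference genes, and dividing out the scaling gave 477113 to 767742 gene counts per animal. Gene counts, the sum of the positive control probes and the mean of the negative control probes were close between the animals lacking Trem2 and the animals with Trem2 (exact permutation tests within Grn states, two-sided p = 0.978, 0.407 and 0.262). By genotype the negative controls averaged 12.4 to 17.3 counts per probe, with the highest mean in WT brains, and their part in the differences of weak genes was not tested. With the negative controls subtracted from every value, the number of genes called was 2, as without. A value is called below background where it did not exceed the mean plus 2 SD of that animal's negative controls, a threshold of 16.3 to 39.1 normalized counts. Differences are given as log2 of the animals lacking Trem2 over the animals with Trem2, on the log2(value + 1) scale, and all adjusted p-values of the comparison come from limma with Benjamini-Hochberg adjustment over the 708 genes.

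The knocked-out gene was checked first. Trem2 had 35.4, 10.2, 8.69 and 14.8 normalized counts in the 4 Trem2 knockout brains, against 160.0, 128, 144 and 140.1 in the 4 WT brains. It had 5.02, 17.4, 13.5 and 20.4 in the 4 double knockout brains, against 239.6, 251, 188 and 248 in the 4 Grn knockout brains. No animal lacking Trem2 reached the lowest animal with Trem2, and only 1 of the 8, Trem2 knockout replicate 1, was above its background threshold. Trem2 was at least 6.8-fold lower in the animals lacking it (limma adjusted p = 6.76e-07), at least 5.15-fold in Trem2 knockout against WT brains and at least 8.49-fold in double knockout against Grn knockout brains. These are lower bounds, since an animal lacking Trem2 was given its background threshold where its own value lay under it. Grn itself had a difference of 0.12 for Trem2 loss (SE 0.14, limma adjusted p = 0.767); 4 of 8 animals in each Trem2 state, as many as lack Grn, were at or below background for it, and in the animals that carry Grn it averaged 589 ± 34.0 in Trem2 knockout and 617 ± 45.4 in WT brains (SD, n = 4 each).

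Beyond Trem2, a single gene of the 708 passed the test, C1qb, which encodes the B chain of the complement component C1q. The 2 genes called are 0.282% of the genes tested, both lower, and 0 genes were called higher. At an unadjusted p under 0.05, limma gave 62 genes (8.76%), of which 43 (6.07%) were lower and 19 (2.68%) higher in the animals lacking Trem2, and the lowest adjusted p among genes higher was 0.281, for Wfs1. The median difference over all genes tested was -0.00. The pair of contrasts behind each average shares no animals. Over the 707 tested genes other than Trem2, 58.6% had the same sign in both, with a Pearson's r of 0.24 and a Spearman's rho of 0.24 across genes, which are not independent replicates. The SD of these differences over genes was 0.17 with Grn present and 0.18 with Grn lost, so most genes lay close to 0 in both.

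**Figure D1:**
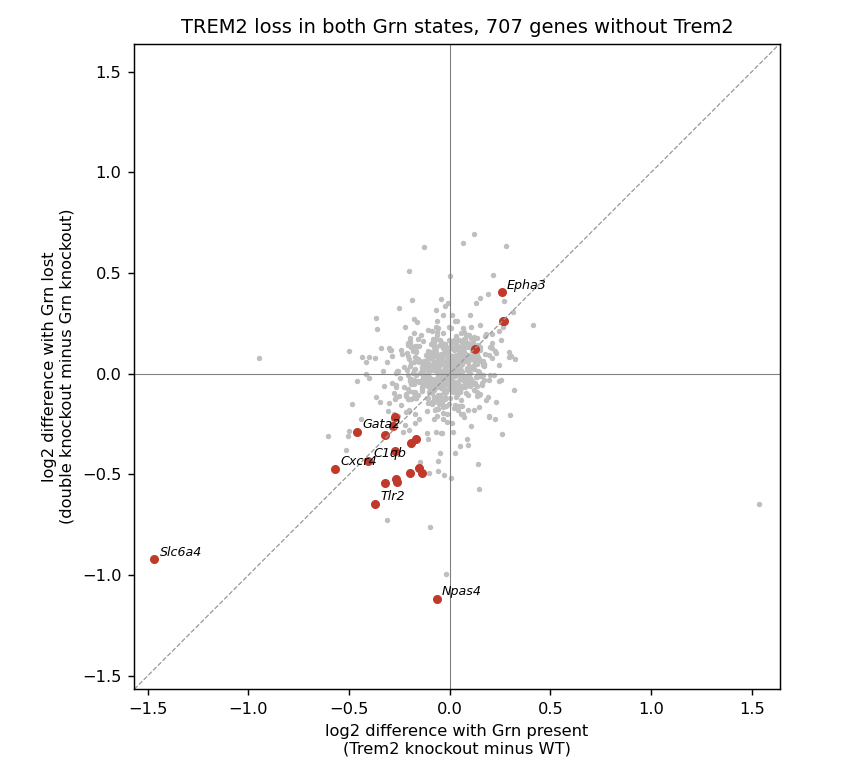
Each point is 1 of 707 genes without Trem2, with the log2 difference of Trem2 knockout minus WT on the x axis and of double knockout minus Grn knockout on the y axis, red for 21 of the genes with the smallest p and for Npas4, and a dashed line where both differences are equal. C1qb lies close to the dashed line at -0.40 and -0.43, while Npas4 lies at -0.07 and -1.12.

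C1q is the recognition molecule of the classical complement pathway, built from A, B and C chains, and in the brain it is made mainly by microglia. All 3 chains were measured. C1qb had 599, 551, 589 and 545 normalized counts in the Trem2 knockout brains, against 809, 728, 775 and 713 in the WT brains. It had 817, 797, 819 and 774 in the double knockout brains, against 956, 1180.4, 983 and 1242 in the Grn knockout brains. Within each Grn state the animals lacking Trem2 all lay below the animals with Trem2, without overlap, while across Grn states the double knockouts lay among and above the WT animals. Over all 708 genes, values without overlap were lower in the animals lacking Trem2 for 2.68% of genes with Grn present and 2.54% with Grn lost, and higher for 0.706% and 1.84%. Only C1qb and Trem2 (0.282%) lay lower without overlap in both Grn states, and 0 genes lay higher in both. With the Grn states pooled, 8 animals against 8, Trem2 alone did not overlap (0.141%).

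C1qb fell by 0.42 on the log2 scale (SE 0.06, 95% interval -0.54 to -0.30), a level 1.34-fold lower in the animals lacking Trem2, with a limma adjusted p of 0.000549. The exact permutation test within Grn states, over 4900 arrangements, gave a two-sided p of 0.000408, the smallest it can give. That p is not adjusted over genes, and C1qb was picked by its limma p in the same values, so it adds no separate support. The difference was -0.40 (SE 0.08) with Grn present, where the limma adjusted p was 0.0698, and -0.43 (SE 0.08) with Grn lost, where it was 0.0353. Neither within-state call was stable. With Grn present C1qb passed without Grn knockout replicate 1 or replicate 4 (limma adjusted p = 0.0387 and 0.0296), with the difference itself as before, and also with a minimum mean of 50 (0.0492) or trended robust variance (0.0282). With Grn lost it no longer passed when any of 12 animals was left out (limma adjusted p 0.0506 to 0.196), the exceptions being WT replicates 1 and 4 and Grn knockout replicates 1 and 3, nor with 9 reference genes (0.0558) or positive control scaling (0.999). Among the 12, WT replicates 2 and 3 and the Trem2 knockouts enter only the shared estimate of spread. Without any of these the difference stayed at -0.434 (limma adjusted p 0.0506 to 0.0589). The average over both states passed without any 1 of the 16 animals (limma adjusted p 0.000265 to 0.0021). The pair of differences was compared in the interaction term, which was -0.03 with a 95% interval of -0.28 to 0.22 (limma adjusted p = 0.998). In the same fit C1qb was higher with Grn lost (Grn coefficient 0.50, limma adjusted p = 3.92e-05). Scaled to the positive controls, which moved the median of all genes by 0.108, C1qb stood at -0.42 relative to that median, but its SE was 0.22 and the call was lost (limma adjusted p = 0.989). Without the Grn term in the model the difference was the same and its limma adjusted p was 0.415.

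C1qc had 427, 451, 430.2 and 328 normalized counts in Trem2 knockout brains, against 525, 491, 440.1 and 509 in WT brains. It had 495, 438, 553 and 539 in double knockout brains, against 652, 694, 584 and 710.5 in Grn knockout brains. The double knockouts were all below the Grn knockouts, and 3 of the 4 Trem2 knockouts were below all WT animals. The difference was -0.33 (SE 0.07), with a limma adjusted p of 0.109. The single-gene exact permutation p was 0.000816, unadjusted for the choice of C1qc by its limma p in the same values. Under 5 of the 32 alternative settings C1qc passed, among them centring on the median of all genes (limma adjusted p = 0.0209) and quantile normalization (0.0273).

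C1qa had 579, 504, 409.6 and 389 normalized counts in Trem2 knockout brains, against 559.8, 539.6, 530.1 and 503 in WT brains. It had 598, 544, 600.0 and 637 in double knockout brains, against 826, 963, 688 and 894 in Grn knockout brains. The animals overlapped with Grn present and did not overlap with Grn lost. The difference was -0.35 (SE 0.09, limma adjusted p = 0.171), made up of -0.20 with Grn present and -0.49 with Grn lost, and the interaction of -0.30 had a 95% interval of -0.66 to 0.07 (limma adjusted p = 0.955). Without Trem2 knockout replicate 1, C1qa passed the test (limma adjusted p = 0.0249), and without Grn knockout replicate 3 its difference with Grn lost did (0.0478). The Grn coefficients of C1qa and C1qc were 0.50 and 0.37 (limma adjusted p = 0.00828 and 0.0212).

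**Figure D2:**
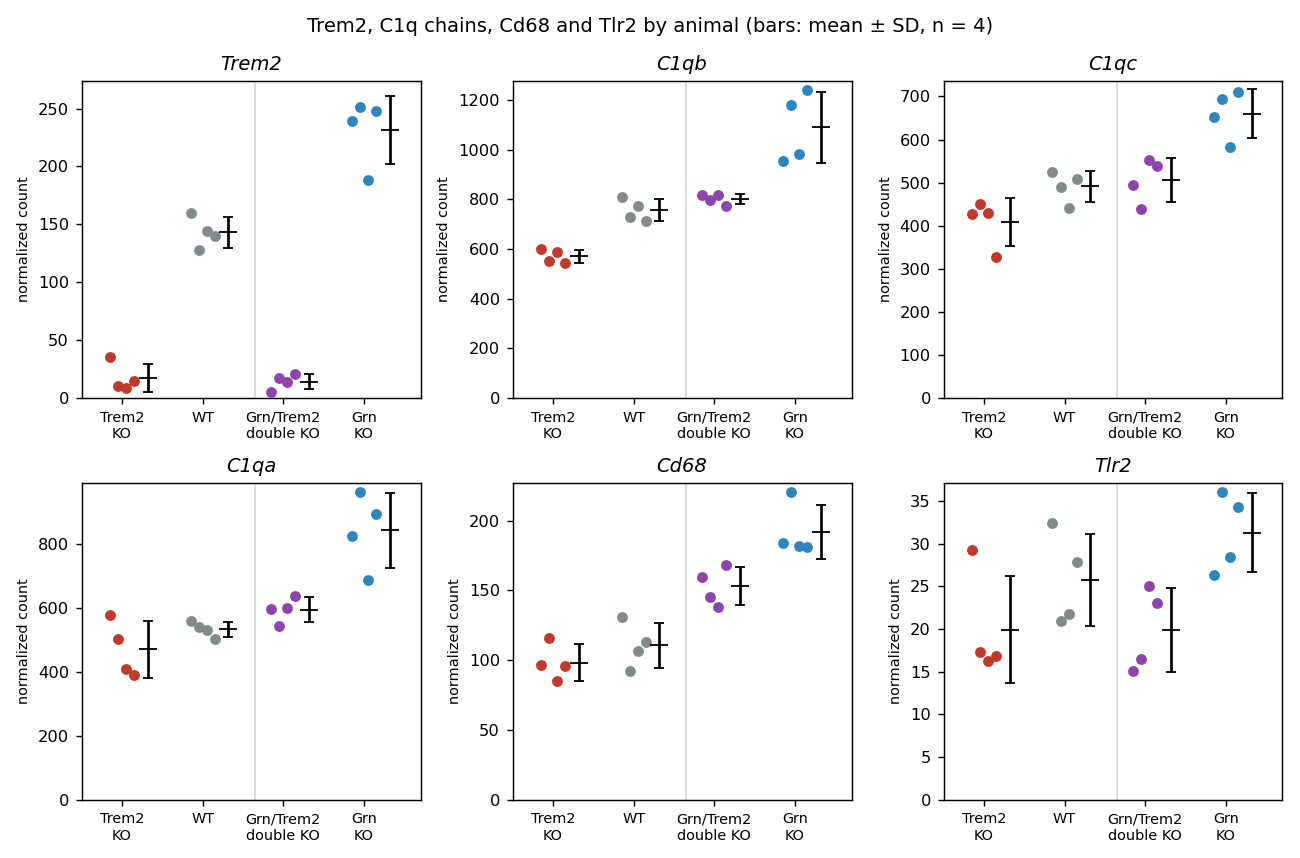
Normalized counts of Trem2, C1qb, C1qc, C1qa, Cd68 and Tlr2 in each animal (points) of the Trem2 knockout, WT, double knockout and Grn knockout groups, with mean ± SD of the 4 animals as bars and y axes from 0. C1qb is lower in each group lacking Trem2 than in the group beside it without overlap, while C1qa and Tlr2 overlap with Grn present and not with Grn lost.

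The genes C1qb, C1qc and C1qa lie in this order on chromosome 4, in a cluster between Gm31536 and Epha8 in the RefSeq annotation of GRCm38.p6. Their promoters are shown because these chains lead the comparison; each window runs from 250 bases before to 50 bases after the RefSeq gene start, and C1qa has no entry in the table used. The capitals mark the only match in each to AGGAAGT, searched on both strands, the core bound by PU.1 and other ETS factors, PU.1 being a factor that microglia need. Both matches read in the reverse orientation. They start 53 bases before the gene start in C1qb (chr4:136886151-136886450, minus strand) and 195 before it in C1qc (chr4:136892865-136893164, minus strand). Of 32851 promoter windows in the table, 3072 (9.35%) hold this motif, and 59 of the 524 tested genes with a window (11.3%) do. A match is a description of letters and no evidence of binding.
C1qb: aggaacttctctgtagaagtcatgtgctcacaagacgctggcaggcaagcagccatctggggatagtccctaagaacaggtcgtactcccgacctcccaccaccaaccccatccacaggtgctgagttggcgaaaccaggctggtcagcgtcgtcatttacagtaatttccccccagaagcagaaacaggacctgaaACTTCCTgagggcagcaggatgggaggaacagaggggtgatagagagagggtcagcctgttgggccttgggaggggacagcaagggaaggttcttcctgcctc
C1qc: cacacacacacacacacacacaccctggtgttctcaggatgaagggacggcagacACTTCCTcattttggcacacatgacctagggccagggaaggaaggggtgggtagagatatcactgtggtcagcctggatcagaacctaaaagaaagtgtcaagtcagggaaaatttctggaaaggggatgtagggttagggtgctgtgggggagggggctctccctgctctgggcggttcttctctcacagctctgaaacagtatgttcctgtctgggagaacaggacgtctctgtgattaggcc

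Other complement genes were weak. C4a, a C4 gene, had a difference of -0.45 (SE 0.17, limma adjusted p = 0.444) with a mean of 25.5 ± 8.33 normalized counts in the animals lacking Trem2 and 34.1 ± 7.39 in the animals with Trem2 (SD, n = 8 each). C3, the central component, differed by -0.30 (limma adjusted p = 0.630), with -0.10 where Grn was present and -0.49 where it was lost. Of the 6 tested genes of the complement list, 5 were below 0, as were 51.3% of all genes tested, and 1 was called lower, with a median of -0.34 beside -0.00 over all genes, and 5 were below 0 in both Grn states, where 29.1% of all genes were. The list holds C1qb, which is itself the call, and its members were chosen with these results known.

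Microglial genes other than C1q gave no call. Among genes of the disease-associated state, Cd68, a lysosomal glycoprotein of phagocytes, had 96.4, 116, 84.7 and 96.0 normalized counts in Trem2 knockout brains, against 131, 91.9, 107 and 113 in WT brains. It had 159.6, 145, 138 and 168 in double knockout brains, against 184, 220.4, 182 and 181 in Grn knockout brains. The double knockouts were all below the Grn knockouts, and the Trem2 knockouts overlapped with WT. The difference was -0.25 (SE 0.08, limma adjusted p = 0.347), beside a Grn coefficient of 0.72 (limma adjusted p = 3.92e-05). Of the 9 tested members of the disease-associated list, 7 were below 0 and none was called, with 4 at an unadjusted p under 0.05 (6.07% of all genes, lower) and a median of -0.18. Restricted to genes with a mean of at least 50, that median was -0.07.

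The Toll-like receptor gene Tlr2 had 29.3, 17.3, 16.3 and 16.9 normalized counts in Trem2 knockout brains, against 32.4, 20.98, 21.8 and 27.8 in WT brains. It had 15.1, 16.4, 25.0 and 23.1 in double knockout brains, against 26.3, 36.0, 28.4 and 34.3 in Grn knockout brains. The double knockouts were all below the Grn knockouts. The difference was -0.51 (SE 0.14, limma adjusted p = 0.232), but 6 of the 8 animals lacking Trem2 and 4 of the 8 with Trem2 were at or below background. Trem2 knockout replicate 1, at 29.3 normalized counts, stood apart from the other 3 Trem2 knockouts at 16.3 to 17.3. Without it, Tlr2 passed the test (limma adjusted p = 0.0249). Cybb, the catalytic subunit of the phagocyte oxidase, was at -0.41 (limma adjusted p = 0.523) with 8 and 6 of 8 animals at or below background in the animals lacking Trem2 and the animals with Trem2. Cd9, a tetraspanin, had a difference of -0.18 (SE 0.07, limma adjusted p = 0.443), and Apoe, which encodes a ligand of TREM2, -0.07 (SE 0.06, limma adjusted p = 0.723).

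The homeostatic genes of microglia did not pass. P2ry12, a purinergic receptor, differed by 0.10 (95% interval -0.11 to 0.30), Tmem119 by -0.14 (-0.33 to 0.06), the fractalkine receptor Cx3cr1 by -0.08 (-0.25 to 0.09) and the growth factor receptor Csf1r by -0.05 (-0.23 to 0.13). Their limma adjusted p-values ran from 0.704 to 0.852. Of the 12 tested genes of that list, 9 were below 0 and none reached an unadjusted p under 0.05, and its median was -0.11. The sign of that median turned under positive control scaling, to 0.0041, where the median of all genes was 0.108. The summed normalized counts of 7 microglial markers were 2480 to 3294 in the animals lacking Trem2 and 2892 to 3572 in the animals with Trem2. Of the 6 of these that were tested, 4 were below 0, with a median of -0.07. Set against this, C1qb was lower by 0.42, and the part of the marker sum in its difference was not tested.

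The genes listed for TREM2 signalling and for the lysosome had medians near 0, in RNA of all cell types of the brain. In the TREM2 signalling list 8 of 9 tested genes were above 0, with a median of 0.05, and 1 was at an unadjusted p under 0.05, higher (2.68% of all genes). Fyn, a Src family kinase, had 0.09 (limma adjusted p = 0.560). Of 23 lysosomal genes, 16 were below 0 with a median of -0.07, and none was called. Cd68 and Npc2 are counted both among these and in the disease-associated list. The lysosomal membrane gene Lamp1 was at -0.08 (SE 0.04, limma adjusted p = 0.586). The signs of the lysosomal median and of Lamp1 turned under positive control scaling, to 0.04 and 0.03, where the median of all genes was 0.108.

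Cytokine and chemokine genes gave no call. Tgfb1, which encodes a cytokine needed for microglial identity, had 54.9, 57.0, 66.3 and 49.6 normalized counts in Trem2 knockout brains, against 67.2, 64.0, 65.3 and 56.7 in WT brains. It had 61.2, 56.1, 52.9 and 46.2 in double knockout brains, against 73.5, 69.9, 65.0 and 93.2 in Grn knockout brains. The double knockouts were all below the Grn knockouts, and the other pair overlapped. The difference was -0.31 (SE 0.09, limma adjusted p = 0.250). The interleukin receptor gene Il13ra1 had -0.27 (SE 0.08, limma adjusted p = 0.306) and the chemokine receptor gene Cxcr4 -0.52 (SE 0.17, limma adjusted p = 0.347), and 4 of the animals lacking Trem2 and 2 of the animals with Trem2 were at or below background for Cxcr4. In the list of 24 tested cytokine and chemokine genes, 17 were below 0 (51.3% of all genes), 13 of them in both Grn states (29.1%), and 5 reached an unadjusted p under 0.05, all lower (6.07%).

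Genes listed for the reactive state of astrocytes, the support cells of the brain, were mostly below 0, and none was called. That list also holds genes of other lists, such as Tgfb1 and C3, so in whole brain RNA it does not single out astrocytes. Cp, the ferroxidase ceruloplasmin, had 155, 146, 151 and 108 normalized counts in Trem2 knockout brains, against 165, 159, 202 and 146 in WT brains. It had 153, 118, 104 and 114 in double knockout brains, against 162, 189, 172 and 175 in Grn knockout brains. The groups did not overlap with Grn lost and overlapped with Grn present. The difference was -0.39 (SE 0.10, limma adjusted p = 0.168). The single-gene exact permutation p was 0.00163, unadjusted for the choice of Cp by its limma p in the same values. Gfap, the intermediate filament of astrocytes, had 781, 581, 753 and 438 normalized counts in Trem2 knockout brains, against 693, 803, 1053 and 628 in WT brains. It had 906, 691, 695 and 681 in double knockout brains, against 914, 1092, 1242 and 1076 in Grn knockout brains. The difference was -0.43 (SE 0.13, limma adjusted p = 0.281), and the animals overlapped with Grn present only. Hspb1, a small heat shock protein, was at -0.40 (SE 0.14, limma adjusted p = 0.443). Of 12 tested genes of the reactive list, 11 were below 0 (51.3% of all genes) and 8 of them in both states (29.1%), with a median of -0.16 and 4 at an unadjusted p under 0.05 (6.07% of all genes, lower). The reactive list shares Tgfb1, Stat3 and Cxcl10 with the cytokine and chemokine list and C3 with the complement list, so their counts are not separate. Of the 8 tested genes of the general astrocyte list, which shares Gfap with the reactive list, 8 were below 0 and 4 of them in both states. Their median was -0.09, and 2 were at an unadjusted p under 0.05, lower. Under positive control scaling the median of the general astrocyte list turned to 0.02, where that of all genes was 0.108. In that list Aldh1l1, a folate enzyme gene, was at -0.33 with Grn present and 0.02 with Grn lost.

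**Figure D3:**
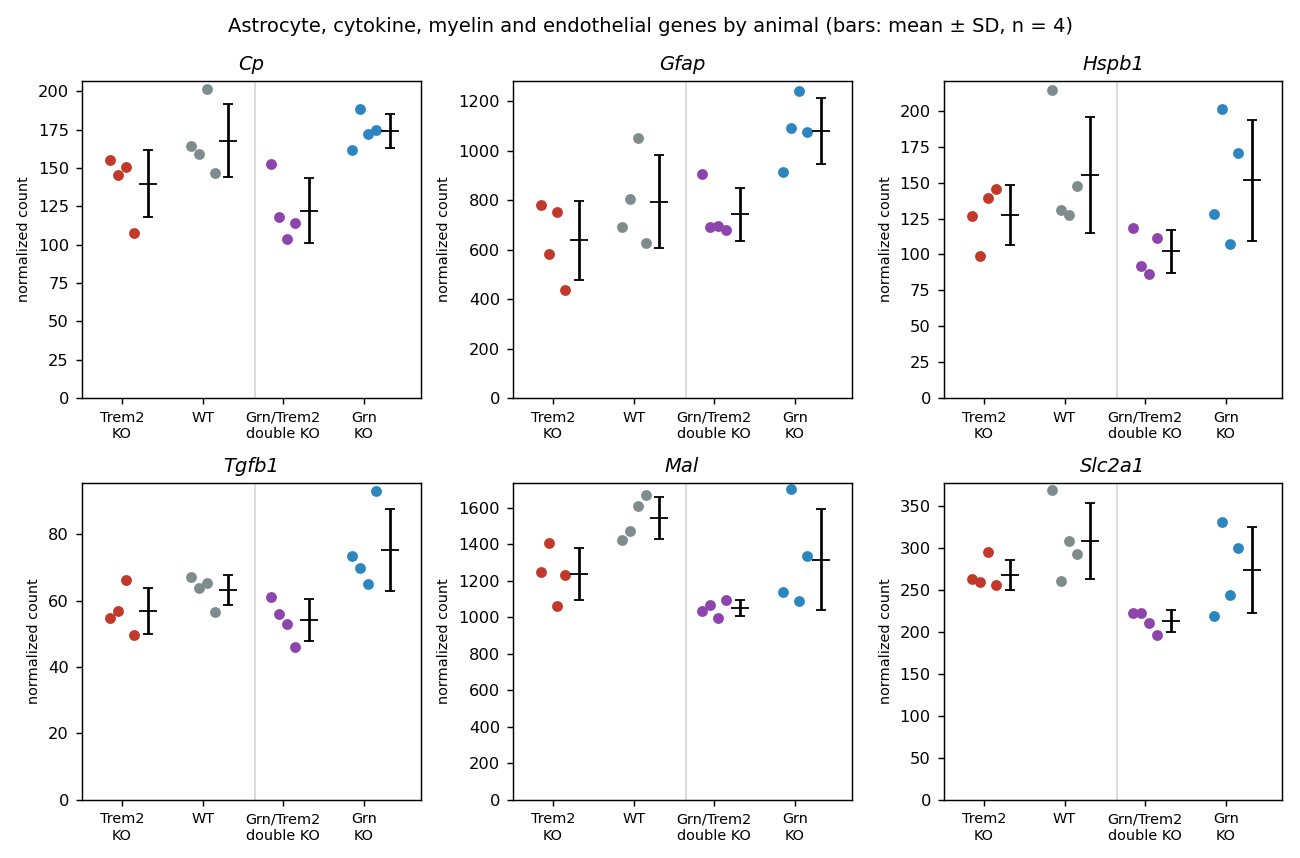
Normalized counts of Cp, Gfap, Hspb1, Tgfb1, Mal and Slc2a1 in each animal (points) of the Trem2 knockout, WT, double knockout and Grn knockout groups, with mean ± SD of the 4 animals as bars and y axes from 0. Cp and Gfap of the double knockout lie below the Grn knockout without overlap, and none of these 6 genes passed the test.

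Mal, a proteolipid of compact myelin, had 1249.9, 1408, 1060.4 and 1231 normalized counts in Trem2 knockout brains, against 1424, 1471, 1609 and 1670.3 in WT brains. It had 1035, 1070.0, 998 and 1098 in double knockout brains, against 1137, 1703, 1092 and 1335 in Grn knockout brains. The Trem2 knockouts were all below WT, and the double knockouts overlapped with the Grn knockouts by 1 animal of each. The difference was -0.31 (SE 0.08, limma adjusted p = 0.171). The single-gene exact permutation p was 0.000816, unadjusted for the choice of Mal by its limma p in the same values. Of 18 tested genes of oligodendrocytes and myelin, 16 were below 0 (51.3% of all genes), 11 of them in both states (29.1%). Their median of -0.08 was small, and Mal alone reached an unadjusted p under 0.05. Under positive control scaling that median turned to 0.03, where the median of all genes was 0.108. Mog, a myelin surface glycoprotein, had -0.14 (SE 0.08, limma adjusted p = 0.623).

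Vascular genes were mostly below 0, without a call. Of 20 tested genes of endothelium and mural cells, 19 were below 0 (51.3% of all genes), 15 of them in both Grn states (29.1%), with a median of -0.19 and 6 at an unadjusted p under 0.05, all lower (6.07%). Slc2a1, the glucose transporter of the blood-brain barrier, had a difference of -0.27 (SE 0.09, limma adjusted p = 0.347), Tie1, an endothelial receptor, -0.24 (SE 0.10, limma adjusted p = 0.466) and Emcn, an endothelial sialomucin, -0.26 (SE 0.11, limma adjusted p = 0.474). The summed normalized counts of 4 endothelial markers were 564 to 942 in the animals lacking Trem2 and 700.3 to 924 in the animals with Trem2. The 4 markers had a median of -0.22, all below 0. Gata2, a transcription factor gene, had 43.9, 50.9, 40.2 and 43.2 normalized counts in Trem2 knockout brains, against 62.6, 59.0, 62.3 and 62.0 in WT brains. It had 40.2, 40.6, 31.7 and 50.3 in double knockout brains, against 39.9, 64.6, 47.4 and 48.2 in Grn knockout brains. The groups did not overlap with Grn present and overlapped with Grn lost, and the difference was -0.37 (SE 0.10, limma adjusted p = 0.171).

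**Figure D4:**
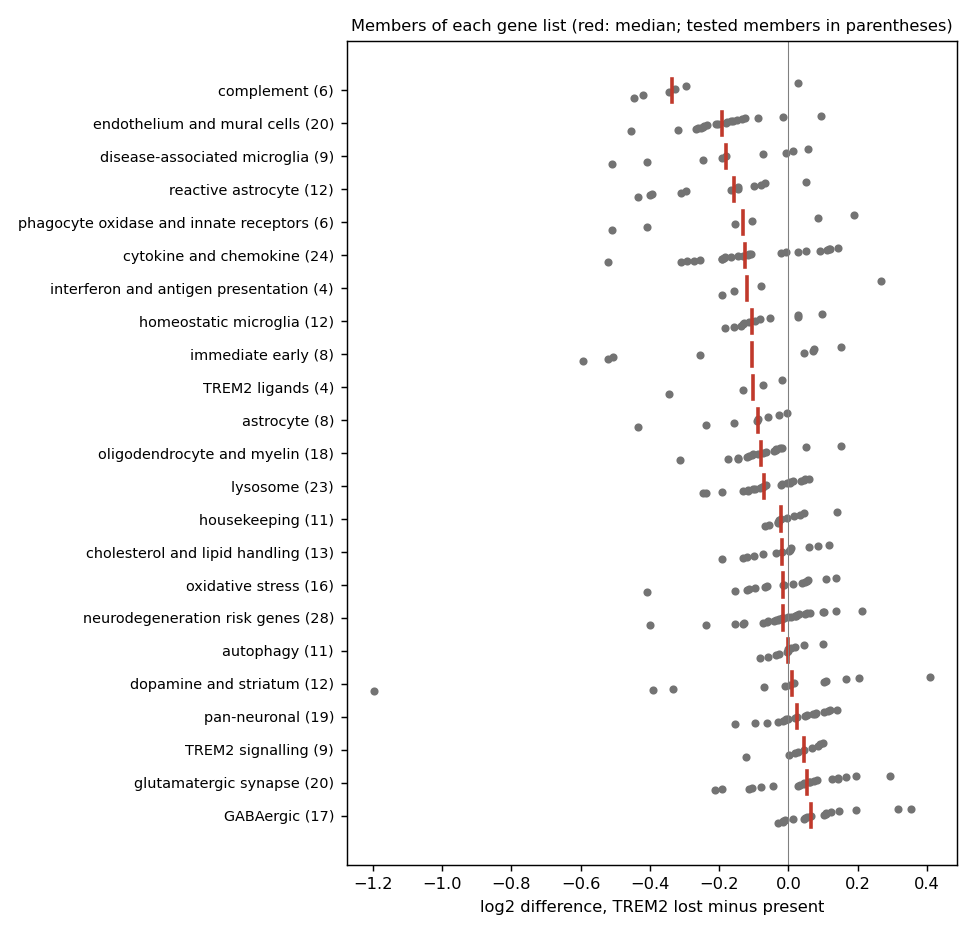
Log2 differences of the tested members (points) and median (red) of each gene list with at least 4 tested members, animals lacking Trem2 minus animals with Trem2. Complement has a median of -0.34 and endothelium and mural cells -0.19, while neuronal lists lie close to 0.

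Neuronal genes were close to 0 on balance. Of 20 tested glutamatergic genes 14 were above 0 (median 0.05), and of 17 GABAergic genes 13 were (median 0.06), 11 of them in both states, where 29.5% of all genes were. Above 0 in the average were 345 of all 708 genes. At an unadjusted p under 0.05, the glutamatergic list had 3 genes higher and 1 lower, and the GABAergic list 0. Over all genes 2.68% were higher and 6.07% lower at that threshold. Gria1, an AMPA receptor subunit, had 0.14 (SE 0.06, limma adjusted p = 0.453), and Grin2a, an NMDA receptor subunit, 0.20 (SE 0.09, limma adjusted p = 0.523), while another NMDA subunit gene, Grin2d, had -0.19 (SE 0.07, limma adjusted p = 0.443).

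Higher in the animals lacking Trem2, though not called, was Wfs1, an endoplasmic reticulum membrane protein gene, with 498, 549, 579 and 567 normalized counts in Trem2 knockout brains, against 506, 416, 496 and 411 in WT brains. It had 541, 514, 472 and 556 in double knockout brains, against 452, 437, 339 and 524 in Grn knockout brains. Both pairs of groups overlapped, and the difference was 0.26 (SE 0.08, limma adjusted p = 0.281). Epha3, an ephrin receptor gene, was at 0.33 (SE 0.11, limma adjusted p = 0.347).

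Slc6a4, the serotonin transporter gene, had the largest difference in size after Trem2 among the 21 genes with the smallest p drawn in the plot of intervals, with 7.32, 13.2, 45.6 and 14.8 normalized counts in Trem2 knockout brains, against 27.8, 38.0, 72.2 and 61.0 in WT brains. It had 21.1, 13.5, 26.9 and 13.6 in double knockout brains, against 11.8, 26.5, 54.2 and 85.7 in Grn knockout brains. Both pairs overlapped, 6 of 8 animals lacking Trem2 and 2 of 8 with Trem2 were at or below background, and the difference was -1.19 (SE 0.39, limma adjusted p = 0.347). Under positive control scaling it passed (limma adjusted p = 0.000433). There limma gave Slc6a4 and the other named genes the same SE, 0.221, smaller than its SE of 0.39 here.

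No interaction was called. Of the 708 genes, 0 passed for the interaction, 24 (3.39%) had an unadjusted p under 0.05 in limma, and the lowest adjusted p was 0.955. Npas4, an immediate early transcription factor of active neurons, averaged a difference of -0.59 (SE 0.30, limma adjusted p = 0.619), made up of -0.07 with Grn present and -1.12 with Grn lost. It had 203, 379, 98.9 and 196 normalized counts in Trem2 knockout brains, against 246, 113, 196 and 329 in WT brains. It had 52.2, 53.2, 91.3 and 97.8 in double knockout brains, against 193, 195, 88.0 and 171 in Grn knockout brains. The interaction of Npas4 was -1.05 with a 95% interval of -2.26 to 0.15 (limma adjusted p = 0.955). The 8 tested immediate early genes had a median of 0.06 with Grn present and -0.33 with Grn lost, beside -0.10 for the average, and this difference between the states was not tested for the list.

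**Figure D5:**
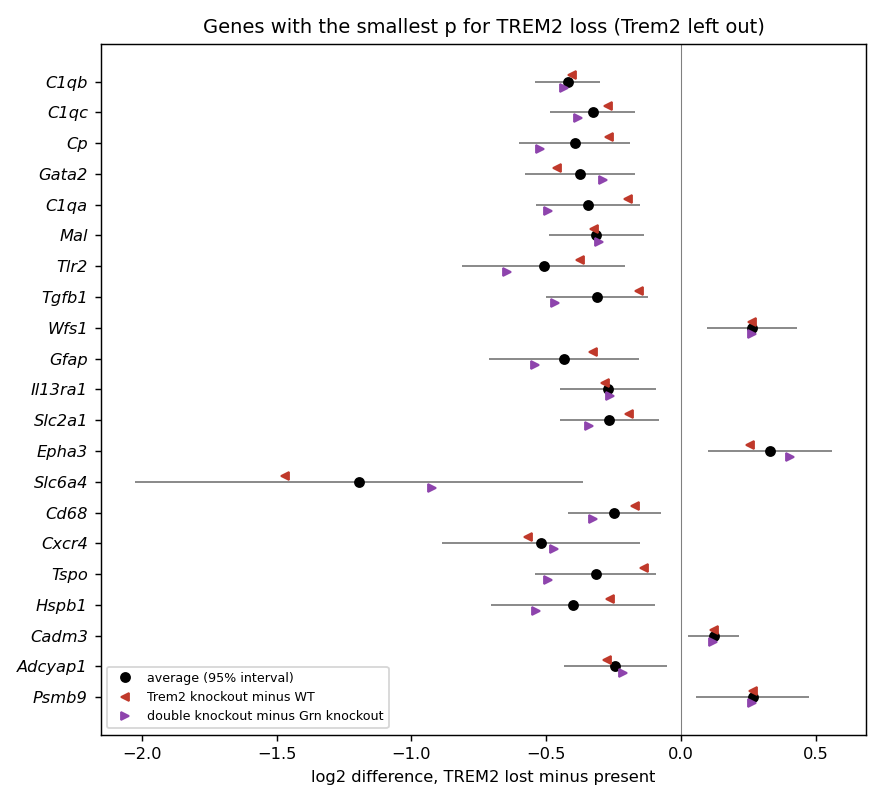
Average log2 difference (animals lacking Trem2 minus animals with Trem2) with its 95% interval for 21 of the genes with the smallest p, and the differences with Grn present and with Grn lost as separate points. Trem2 is left out, C1qb is the only gene shown that was called, and it has its Grn present and Grn lost points at -0.40 and -0.43.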

How the data were processed

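Total RNA of whole brain, isolated with a silica column kit per the labels' protocols, was measured in 16 mice with an nCounter Neuropathology panel. The deposited table gives a signal per probe for 770 genes, 6 positive and 8 negative controls. Neither the authors' software nor their background handling is given in the sources used here. In each animal 99.74% or more of gene values are whole multiples, within 0.0075, of 1 factor (0.907 to 1.36), and the geometric mean of 10 reference genes is 321.56 in every animal, with an SD of 6.63e-06 in mean log2, so the deposited signal is scaled to them. Changes shared with those genes would not be seen. No animal was dropped, and all 24 within-group pairs of animals were further apart than counting noise allows (chi-square over its degrees of freedom 3.32 to 15.0). Replicate numbers follow accession order and pair no animals; run day and cartridge are not given.

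The values were taken as log2(value + 1), genes averaging 20 or more across all 16 animals were kept, and limma 3.58.1 in R 4.3.3 was fitted with Trem2 state and Grn state (13 residual degrees of freedom), with a fit of 4 group means for the contrasts within Grn states and the interaction. All tests were two-sided with a threshold of 0.05 after Benjamini-Hochberg adjustment. The fit was tested on simulated data. Exact permutation permuted Trem2 state within Grn states. Its p-values for genes were not adjusted and rest on the same values that ranked the genes, so they are no separate support. Named genes were Trem2, Grn, genes called, genes in order of p up to 24, up to 3 of smallest p per list, and a preset set; members of some lists were left out, and some genes are not reported here. The members and lists were chosen with earlier results of these data known, and some genes are in more than 1 list. Gene symbols were matched to a RefSeq table of GRCm38.p6 (763 by symbol, 7 by synonym). The alternatives were other scalings, filters, pseudocounts, weights, variance models and leaving out each animal.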

Additional observations from a re-analysis of the deposited data

Results flagged for a closer look

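Of 228 groups of 4 animals checked, 11 held an animal set apart from the other 3, and chance alone gives about 11.4. An animal was flagged where the gap to its nearest neighbour took up most of the range of the 4 values. A flag can therefore rest on 3 close values and a small gap, as for Gata2. Tlr2 was 29.3 normalized counts in Trem2 knockout replicate 1 (others 16.3 to 17.3), and leaving that animal out made Tlr2 pass the test. Gfap was 906 in double knockout replicate 1 (others 681 to 695), and Adcyap1, a neuropeptide gene, 76.0 in double knockout replicate 3 (61.1 to 62.9). Pllp was 311 and Cd33 40.1 in Trem2 knockout replicate 4 (247 to 255 and 35.4 to 35.8). Gata2 was 59.0 in WT replicate 2 (62.0 to 62.6). In Grn knockout brains, Cd68 was 220 (181 to 184) and Mog 1150 (873 to 915) in replicate 2, Csf1r 477 (549 to 553) in replicate 3, Gdpd2 51.7 (74.2 to 77.2) in replicate 1 and Adcyap1 93.2 (69.0 to 73.1) in replicate 4.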

How the results depend on the processing

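The number of genes called, 2, ran from 2 to 4 as each animal was left out, with 4 only without Trem2 knockout replicate 1, which added C1qa and Tlr2. It was 7 with animal weights (adding C1qa, C1qc, Cp, Gata2 and Mal), and 1, Trem2 alone, without the Grn term, with only the animals with Grn present and with only the animals with Grn lost. It was 3, with C1qc added, after centring on the median, quantile normalization, trended robust variance or voom. The C1qb call held in 28 of 32 alternatives, with a difference of -0.446 to -0.388 as each animal was left out (limma adjusted p 0.000265 to 0.0021). It was lost with positive control scaling (-0.308), without the Grn term, and within the animals with Grn present (limma adjusted p = 0.106) or Grn lost (0.263). Positive control scaling left 10 genes at an unadjusted p under 0.05 beside 62, called Slc6a4 in place of C1qb, and took the interaction count to 1 (Prl, named after its values were seen). For the average difference, limma gave all named genes the same SE under that scaling, 0.221. Background probes as a covariate or subtracted left 2 genes called. Directions turned for genes that were not called. Under positive control scaling the differences were 0.0292 for Lamp1, 0.0381 for Apoe, 0.0277 for Cx3cr1, 0.0579 for Csf1r, and with Grn present 0.0131 for C1qa and 0.0409 for Cd68. The median of all genes was 0.108 under that scaling. Relative to it, Lamp1 was at -0.0787, Apoe at -0.0698, Cx3cr1 at -0.0803 and Csf1r at -0.05, so these did not turn relative to the other genes. With only the animals with Grn lost the differences were 0.016 for Aldh1l1, 0.085 for Pllp, 0.0155 for Prkcq, -0.00762 for P2ry12 and 0.0598 for Cd33. With only the animals with Grn present they were -0.0665 for Grn, 0.028 for Tgfbr2 and -0.0696 for Fcrls, and voom gave -0.0266 for Grn. Fcrls ran from -0.046 to 0.0794 as each animal was left out. The cause was not tested. Scaling to 9 reference genes without Cnot10, chosen after seeing the data, kept both calls. No paired analysis was possible because replicate numbers only follow accession order. A planned quasi-likelihood count test was not run, because the deposited values did not pass as whole reads for every gene. With 4 animals per genotype and background of 16.3 to 39.1 normalized counts, weak genes are limited by background.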

Other observations

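Monoamine genes beside Slc6a4 had differences on both sides of 0, and none was called. Ddc, which makes dopamine and serotonin from their precursors, was at -0.33 (limma adjusted p = 0.481), and Slc18a2, the vesicular monoamine transporter, at -0.39 (limma adjusted p = 0.692). Th, the first enzyme of dopamine synthesis, named after its value was seen, was at 0.41 (limma adjusted p = 0.704). The list of dopamine and striatum genes as a whole had 5 of 12 members below 0 and a median of 0.01. Psmb9, an immunoproteasome subunit, was at 0.27 (limma adjusted p = 0.443) made up of 0.27 with Grn present and 0.26 with Grn lost. WT replicates 1, 2 and 3 were at or below background for it, and all other animals were above. These WT animals had 37.1, 30.98 and 30.7 normalized counts, with thresholds of 39.1, 30.98 and 37.4. The difference with Grn present is therefore limited by background. The reference gene Cnot10, 1 of the 10 that set the scale, had a difference of 0.14 (SE 0.05), and both calls held without it.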
